A study of Mus musculus with 8 samples.

Results

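The 13215 regions described here are distal stretches of open chromatin that were called in every library of a macrophage ATAC-seq study and that lie away from the ends of protein-coding genes. ATAC-seq maps open DNA by the places where the transposase Tn5 can insert adapters. Merging the peaks of the 8 deposited lists wherever they shared 1 bp or more gave 76751 regions, of which 30395 lay on chromosomes 1 to 19 and had a peak in all 8 libraries, here named constitutive. The distal regions are those of the 30395 that were under 1000 bp wide after merging and whose highest summit lay more than 10 kb from both ends of every protein-coding gene of RefSeq. They make up 43.5% of the constitutive regions and 17.2% of all merged regions. Another 397 constitutive distal regions were 1000 bp or wider and were left out. The regions were thus chosen by measured values, namely a call in all 8 libraries, the merged width and the place of the summit with the highest fold enrichment, so presence in every group is no finding, and a region open in some groups alone is not covered.

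The cells were macrophages grown from mouse bone marrow for 7 days. There were 4 groups of 2 libraries: Lamin-A KO cells activated with LPS for 6 h, untreated Lamin-A KO cells, wild-type (WT) cells activated with LPS for 6 h, and untreated WT cells. All cells were frozen and thawed before tagmentation. The labels give neither the LPS dose nor the sex of the mice nor how Lmna was disrupted. They also do not say that the libraries of a group are from separate mice, so the p-values measure the spread between these libraries, which may be technical. For the LPS groups the source name holds both LPS and untreated, and the title and treatment entries, which state activation with LPS, were used.

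Open regions far from genes include enhancers, which bind transcription factors and act on promoters at a distance, and sites bound by CTCF, which holds chromatin loops. In macrophages many enhancers are opened by PU.1, often with C/EBP and AP-1 proteins. Lipopolysaccharide (LPS), a part of the bacterial cell wall, acts through Toll-like receptor 4 and calls up NF-kB, AP-1 and interferon-induced factors at such sites. Lamin A and lamin C, both made from Lmna, form part of the meshwork under the nuclear envelope that holds gene-poor, mostly silent chromatin at the nuclear edge.

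Each list held a fold enrichment of every peak over its local background, given by the authors' peak caller. The fold enrichment of the 30395 constitutive regions was turned into a percentile from 0 to 100 within each library, and a shift is the difference between group means of these percentiles, in percentile points. Every library ranks the same 30395 regions, so the length of a list does not enter. A rank shows a region's standing among the other regions and not how open it is in itself. Calls are from limma across all 30395 regions at an adjusted p under 0.05 (Benjamini-Hochberg).

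The KO lists were shorter, with 44504 to 49661 peaks, than the WT lists, with 53942 to 59750. The peaks within the distal regions had a median width of 382 to 398 bp in the KO libraries and 424 to 443 bp in the WT libraries. Summit pileup is the height of stacked reads, recovered from the deposited values, with a flat genome-wide background of 5.53 in every library. The median pileup of the distal regions was 82 to 101 in the KO libraries and 106 to 121 in the WT libraries. Genotype and this difference between the lists cannot be told apart, and the ranks remove a change shared by all regions but not one that depends on a region's height or width. Within Lmna (chr3:88481148-88509932, mm10), 1 region was called in all 4 KO libraries and in no WT library, and another, less than 1 kb away, in all 4 WT libraries and in no KO library. The lists of genes used below gave a check of the cell type: 30 of 40 macrophage genes had a region called in all 8 libraries at a gene end, against 0 of 9 B cell, 0 of 10 erythroid and megakaryocyte, 4 of 15 T and NK cell, 4 of 12 neutrophil and 2 of 12 stromal and endothelial genes.

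For 362 of the distal regions (2.74%) the summit fell inside a RefSeq promoter window, which runs from 250 bases before to 50 bases after the start of a transcript. The window belonged to a long non-coding RNA in 169 regions and to an internal start of a protein-coding gene in 200, and some regions had both. Those windows hold the sequence under a summit, and the 5 shown belong to the regions with the largest rises and falls in rank with LPS and to the one with the highest mean rank. They are RefSeq sequences of GRCm38.p6, written 5' to 3' in the direction of the gene, with capitals for a match to 1 of 8 motifs searched. Gm10858 (chr5:146897048-146897347, minus strand) and R3hdm2 (chr10:127420617-127420916, plus strand) rose with LPS, Gm39792 (chr2:33908350-33908649, minus strand) and B3galt5 (chr16:96273263-96273562, plus strand) fell, and 9330159M07Rik (chr9:88858821-88859120, minus strand) stood highest.
Gm10858 promoter window: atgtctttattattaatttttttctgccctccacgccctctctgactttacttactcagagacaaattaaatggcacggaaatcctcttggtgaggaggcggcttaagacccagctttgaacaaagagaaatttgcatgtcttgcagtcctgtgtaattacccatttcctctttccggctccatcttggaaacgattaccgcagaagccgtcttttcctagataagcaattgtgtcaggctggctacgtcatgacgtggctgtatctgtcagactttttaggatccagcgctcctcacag
R3hdm2 promoter window: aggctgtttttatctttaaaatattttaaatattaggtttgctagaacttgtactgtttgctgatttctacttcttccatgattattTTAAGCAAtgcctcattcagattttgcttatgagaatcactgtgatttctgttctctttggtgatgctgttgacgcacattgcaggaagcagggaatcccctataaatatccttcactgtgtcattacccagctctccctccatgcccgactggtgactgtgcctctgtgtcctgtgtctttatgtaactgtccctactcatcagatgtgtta
Gm39792 promoter window: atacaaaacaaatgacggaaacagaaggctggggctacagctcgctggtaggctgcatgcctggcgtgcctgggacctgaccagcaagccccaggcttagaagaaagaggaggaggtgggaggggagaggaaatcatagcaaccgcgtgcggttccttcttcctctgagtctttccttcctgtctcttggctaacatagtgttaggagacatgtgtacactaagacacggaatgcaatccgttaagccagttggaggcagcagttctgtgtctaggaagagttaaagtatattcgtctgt
B3galt5 promoter window: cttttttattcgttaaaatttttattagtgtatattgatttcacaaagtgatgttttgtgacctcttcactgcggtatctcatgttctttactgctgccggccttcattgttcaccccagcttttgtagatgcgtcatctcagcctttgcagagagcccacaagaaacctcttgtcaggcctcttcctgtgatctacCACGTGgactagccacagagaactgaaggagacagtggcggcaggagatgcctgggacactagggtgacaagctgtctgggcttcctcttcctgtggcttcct
9330159M07Rik promoter window: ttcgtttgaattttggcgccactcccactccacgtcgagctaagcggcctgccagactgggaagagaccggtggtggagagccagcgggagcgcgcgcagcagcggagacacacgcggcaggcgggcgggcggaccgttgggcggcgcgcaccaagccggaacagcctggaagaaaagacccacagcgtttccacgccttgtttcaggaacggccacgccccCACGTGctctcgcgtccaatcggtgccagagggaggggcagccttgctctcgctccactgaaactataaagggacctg
In R3hdm2 the capitals mark the C/EBP motif, and in B3galt5 and 9330159M07Rik the E-box. In Gm10858 and Gm39792 none of the 8 motifs was found in these windows.

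The region at the Gm10858 start, a long non-coding RNA, stood at the 72.3 and 70.2 percentile in LPS-treated KO cells and 81.1 and 77.2 in LPS-treated WT cells, against 18.1 and 9.22 in untreated KO cells and 30.2 and 26.0 in untreated WT cells. The region at an internal start of R3hdm2 stood at 80.2 and 76.8 in LPS-treated KO cells and 68.6 and 72.9 in LPS-treated WT cells, against 26.6 and 33.9 in untreated KO cells and 27.6 and 30.8 in untreated WT cells. In both, all 4 LPS libraries lay above all 4 untreated ones, and the shifts were 54.4 ± 5.06 (SE, adjusted p = 0.000256) and 44.9 ± 4.91 points (adjusted p = 0.000377). The region at the Gm39792 start stood at 23.7 and 4.51 in LPS-treated KO cells and 45.9 and 34.5 in LPS-treated WT cells, against 67.8 and 72.5 in untreated KO cells and 78.4 and 79.0 in untreated WT cells, a shift of -47.3 ± 6.01 points (adjusted p = 0.000691). B3galt5, which encodes a galactosyltransferase, fell by 44.1 ± 10.1 points (adjusted p = 0.0105) with unequal replicates, at 42.5 and 15.2 in LPS-treated KO cells and 54.2 and 9.94 in LPS-treated WT cells, against 67.6 and 81.4 in untreated KO cells and 78.7 and 70.7 in untreated WT cells. The region at 9330159M07Rik lay between the 99.3 and the 99.9 percentile in every library. Among all 362 regions at such starts 8.29% were called higher with LPS and 21.3% lower, against 21.0% and 18.4% of the 12853 others, and this difference was not tested.

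The 8 motifs were counted on both strands in the 401 promoter windows that hold the summit of a distal region and in all 32817 windows of the table. The PU.1 motif GAGGAAGT was found in 6.48% of the 401 and in 3.20% of all. The AP-1 motif TGANTCA stood in 15.2% against 7.81%, the CTCF motif in 4.99% against 2.43%, and the NF-kB motif in 4 of the 401 windows, 0.998%, against 0.411%. The ratio of the shares was nearer to 1 for the C/EBP motif TTGCNNAA (13.7% against 10.8%), the E-box CACGTG (9.98% against 7.15%), the RUNX motif TGTGGT (17.5% against 16.8%) and the interferon response motif (3.74% against 3.43%). A match is a run of letters and not a bound site, and these windows describe the few regions at starts, not the 12853 others.

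The median rank of the distal regions was below that of constitutive regions at gene ends in every library. Their median percentile was 48.5 and 49.0 in LPS-treated KO cells, 47.0 and 47.3 in untreated KO cells, 50.2 and 49.5 in LPS-treated WT cells and 48.8 and 48.6 in untreated WT cells. The 8791 constitutive regions within 1 kb of a gene end had medians of 60.5 to 65.3, and the 7992 at 1 to 10 kb had medians of 38.6 to 40.3. Among the distal regions 6.11% stood in the highest 10% of all constitutive regions by mean percentile, against 15.0% of those at gene ends. Of all 40045 merged autosomal regions under 1000 bp and over 10 kb from gene ends, 33.0% were called in all 8 libraries, against 64.5% of 11808 such regions within 1 kb of a gene end and 35.8% of 21380 between. These values bear on the choice of the regions and were not tested.

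**Figure D1:**
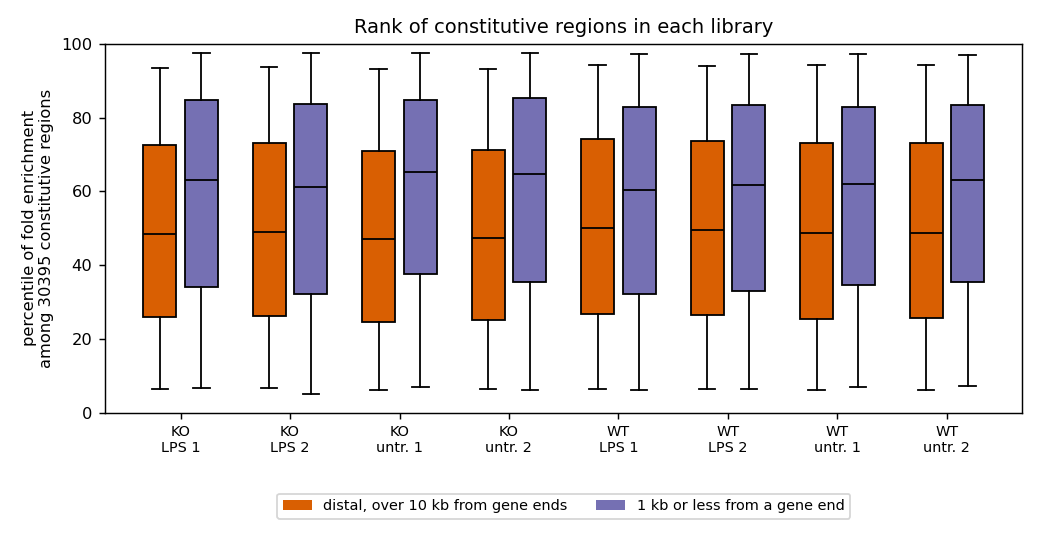
Percentile of fold enrichment (vertical axis, 0 to 100) in each of the 8 libraries for the 13215 distal regions (orange) and the 8791 constitutive regions within 1 kb of a gene end (purple). Boxes span the quartiles with a line at the median and whiskers run from the 5th to the 95th percentile of regions. The distal medians lie between 47.0 and 50.2 and the gene-end medians between 60.5 and 65.3.

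The merged width of the distal regions had a median of 497 bp, and the summit positions of the 8 libraries spanned a median of 66 bp. In 29.5% of regions all 8 summits lay within 50 bp, and in 4.15% they spread over more than 200 bp. At gene ends the median span was 70 bp, with 32.0% within 50 bp and 8.61% over 200 bp, in regions with a median width of 697 bp. Of the 13215 regions 52.9% lay inside a protein-coding gene and 47.1% between genes, at a median of 32.3 kb from the nearest gene end. The farthest, chr1:102628094-102628444, lay 2137.66 kb away. For naming, each was given the gene it lies in or else the nearest protein-coding gene within 100 kb, which does not show that it acts on that gene. By this rule 11992 regions went to 4591 genes and 1223 had none.

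The regions of highest mean percentile stood near the top in every library, which follows from choosing them by a mean so near 100. The region nearest Gpr37l1, a receptor gene known from glial cells, stood above the 99.9 percentile in all 8 libraries, with a pileup of 345 and 268 in LPS-treated KO cells, 348 and 375 in untreated KO cells, 349 and 357 in LPS-treated WT cells and 354 and 344 in untreated WT cells. The next 5 lay at chr4:28176778-28177224, 636 kb from the nearest gene end, in Usp32, in Rad51b, at chr8:20122048-20122787 and in Atrnl1, all with a mean percentile above 99.8. None of these 6 was called with LPS or in KO, and ranks so near the ceiling left little room for a shift. The 3 lowest lay in Plec, which encodes the cytoskeletal linker plectin, near Ergic1 and near Chd7, which encodes a chromatin remodeller, at mean percentiles of 0.0428, 0.293 and 0.307. The Plec region was not shallow: its pileup was 150 to 197 in the KO libraries and 237 to 274 in the WT libraries, over a local background of 65.5 to 78.3 in KO and 87.6 to 108.2 in WT, set against a flat genome-wide background of 5.53 in every library. The low rank of this region thus went with a high local background and not with a low summit.

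With LPS the distal regions changed rank in both directions. The limma test called 2732 of them (20.7%) higher in rank in LPS-treated than in untreated cells, where 14.9% of all 30395 regions were called, and 2448 (18.5%) lower, where 15.7% of all were called. At gene ends, for regions of any width, the shares were 6.01% higher and 10.6% lower. The median size of the shift was 10.0 points in the distal regions, 7.32 in all constitutive regions and 4.53 at gene ends, against a median SE of 4.88 points in the distal regions. The shifts ran from -68.0 to 82.6 points with a median of 0.0313, and 24.6% of distal regions moved by more than 20 points, against 16.9% of all. All 4 LPS libraries lay above all 4 untreated ones in 2148 distal regions (16.3%, background 12.3%) and below them in 2003 (15.2%, background 13.2%). Distal regions are 43.5% of the ranked set and so weigh on its background. Whether they differ from the rest beyond chance was not tested.

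Libraries of the same treatment resembled each other more than libraries of the same genotype. Over the 13215 regions the percentiles of libraries of the same group correlated at a Pearson r of 0.911 to 0.934. Libraries of the same treatment and the other genotype correlated at 0.858 to 0.879, those of the same genotype and the other treatment at 0.684 to 0.739, and those differing in both at 0.646 to 0.692. These correlations describe regions within libraries, which are not independent. The replicates of a group differed by a median of 5.55 to 6.63 points per region.

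The region with the largest rise lies inside Itga9 (chr9:118669714-118670296), the gene of the integrin alpha 9 chain. It stood at the 83.2 and 91.3 percentile in LPS-treated KO cells and 81.5 and 86.9 in LPS-treated WT cells, against 0.972 and 1.60 in untreated KO cells and 3.93 and 5.87 in untreated WT cells. Its summit pileup was 389 and 375 in LPS-treated KO cells and 561 and 476 in LPS-treated WT cells, against 54 and 64 in untreated KO cells and 89 and 103 in untreated WT cells. The 4 LPS libraries lay far above the 4 untreated ones on both scales, and the shift was 82.6 ± 5.01 points (SE, adjusted p = 0.000164).

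A region with no protein-coding gene within 100 kb, chr12:32698687-32699202, stood at 94.3 and 98.1 in LPS-treated KO cells and 96.2 and 94.8 in LPS-treated WT cells, against 5.98 and 11.1 in untreated KO cells and 30.2 and 29.2 in untreated WT cells. The shift was 76.8 ± 4.48 points (adjusted p = 0.000164). The next 6 rises, of 72.0 to 76.0 points, were in Epc2, which encodes a protein of a histone acetyltransferase complex, in Mapt, which encodes the microtubule protein tau, near Sh3bp4, in Xpo6, which encodes a nuclear export receptor for actin, in Gm19410 and in Ralgapa1, which encodes a subunit of a GTPase-activating protein for Ral. In each of these 8 regions the untreated libraries stayed at or below the 35.8 percentile and the LPS libraries stood at 72.6 or above.

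Among the falls, the region in Axl (chr7:25776665-25777224), which encodes a receptor kinase that macrophages use to take up dying cells, stood at 4.13 and 5.89 in LPS-treated KO cells and 7.50 and 11.1 in LPS-treated WT cells, against 80.4 and 77.3 in untreated KO cells and 68.9 and 69.9 in untreated WT cells. Its pileup was 62 and 52 in LPS-treated KO cells and 84 and 81 in LPS-treated WT cells, against 168 and 196 in untreated KO cells and 230 and 228 in untreated WT cells. The groups did not overlap, and the shift was -67.0 ± 4.69 points (adjusted p = 0.000164). The largest fall was near Socs6 (chr18:88932082-88932562), a member of the family of cytokine signalling suppressors, at -68.0 ± 6.55 points (adjusted p = 0.000266). The other 6 of the 8 largest falls, from -67.2 to -61.1 points, lay near St6gal1, which encodes a sialyltransferase, at chr10:37289956-37290562 and chr6:22474570-22475099 with no gene within 100 kb, in Epb41l2, which encodes a protein that ties the membrane to the cytoskeleton, near Tmco5 and in Clic4. The LPS libraries of these 8 regions stood at 35.8 or below and the untreated ones at 62.0 or above.

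**Figure D2:**
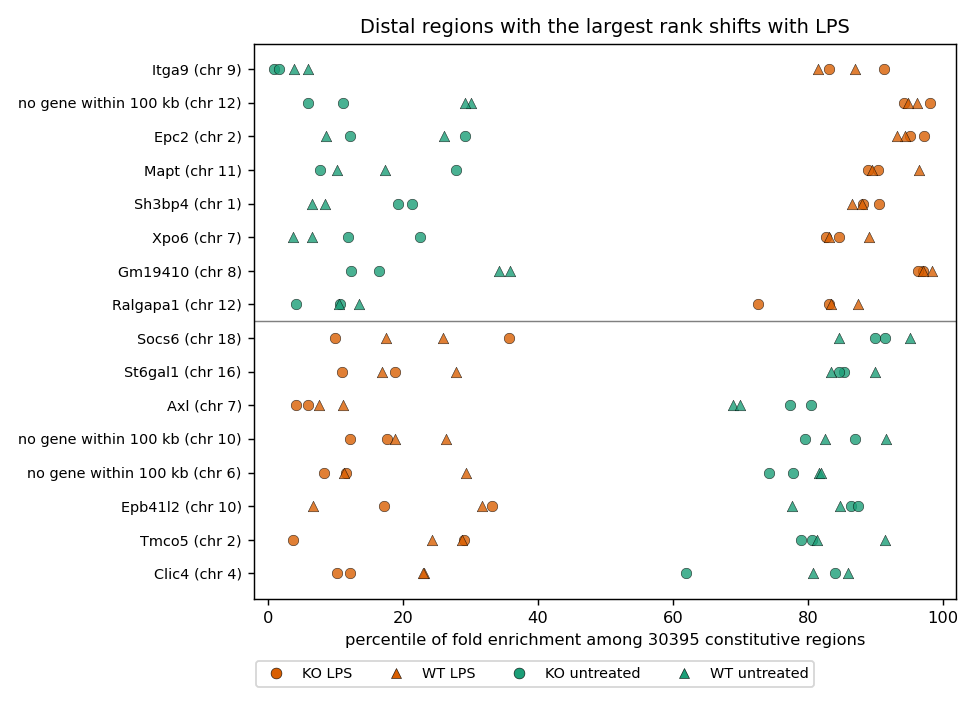
Percentile of fold enrichment (horizontal axis) in each library for the 8 distal regions with the largest rise with LPS (above the line) and the 8 with the largest fall (below it), orange for LPS and green for untreated, circles for KO and triangles for WT. Each region was chosen for its size of shift and for groups that do not overlap, so the gap between the colours follows from the choice. LPS points lie at 72.6 or above in the upper rows and at 35.8 or below in the lower rows.

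LPS shifts went the same way in KO and WT cells for most regions. The LPS shift within KO cells and that within WT cells use no common library, and over the 13215 regions they correlated at a Pearson r of 0.793 (Spearman rho 0.761), with the same sign in 77.9% of regions, given as a description across regions ranked within shared libraries. Within KO cells 1768 regions (13.4%, background 9.21%) were called higher with LPS and 1404 (10.6%, background 8.88%) lower. Within WT cells 1380 (10.4%, background 7.16%) were called higher and 1165 (8.82%, background 6.89%) lower. Of those called higher, 941 were called in both genotypes, which is 53.2% of the KO calls and 68.2% of the WT calls. Of those called lower, 697 were called in both, 49.6% of the KO calls and 59.8% of the WT calls, and 2 regions were called in opposite directions. These counts rest on 2 libraries a side: without LPS-treated KO library 1 the KO calls lower numbered 925, without LPS-treated KO library 2 the KO calls were 1027 and 745, and without untreated KO library 1 or 2 they were 1117 and 719 or 1141 and 731. In WT cells they were 596 and 445 or 538 and 388 without LPS-treated library 1 or 2, and 502 and 270 or 479 and 273 without untreated library 1 or 2.

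**Figure D3:**
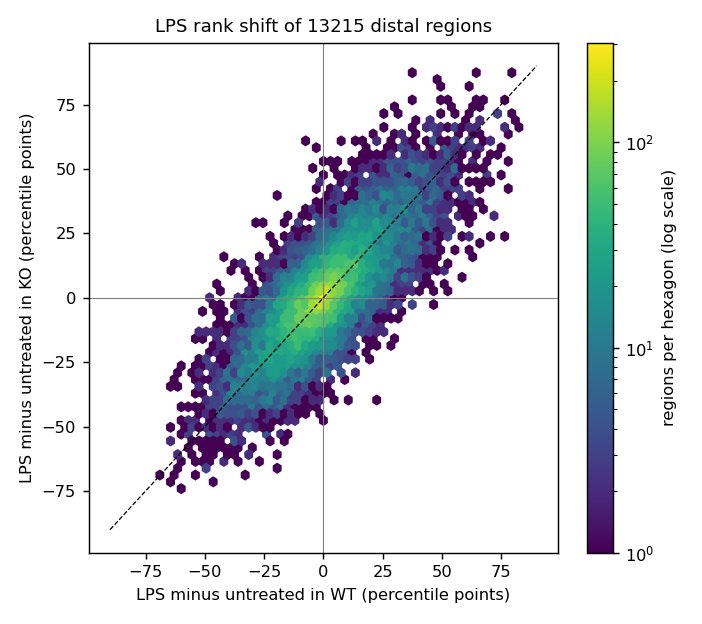
LPS shift in KO cells (vertical axis) against LPS shift in WT cells (horizontal axis), both in percentile points, for 13215 distal regions drawn as hexagons coloured by the number of regions on a log scale. The dashed line marks equal shifts. Most regions lie along that line, with a Pearson r of 0.793.

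No distal region was called for a difference in the LPS shift between KO and WT cells. The limma interaction test gave 0 calls among the members (background 0%), with 1242 (9.40%) at an unadjusted p under 0.05 against 7.88% of all regions, and the smallest adjusted p was 0.142. The largest positive difference was near Mier3, with the region at 69.0 and 80.7 in LPS-treated KO cells and 12.1 and 16.3 in untreated KO cells, and at 50.5 and 58.2 in LPS-treated WT cells and 63.5 and 62.2 in untreated WT cells. It came to 69.2 ± 10.5 points (adjusted p = 0.309), and the summit pileup of the region was higher with LPS in both genotypes, at 135 and 129 in LPS-treated KO cells against 35 and 40 in untreated KO cells, and at 145 and 149 in LPS-treated WT cells against 82 and 94 in untreated WT cells. The region near Stk31 had a difference of 60.1 ± 9.35 points (adjusted p = 0.309). The largest negative differences were near Usp6nl, at -62.1 ± 11.8 points (adjusted p = 0.354), and near Nfil3, which encodes a bZIP transcription factor, at -54.3 ± 9.56 points (adjusted p = 0.309). The Nfil3 region stood at 98.3 and 99.0 in LPS-treated KO cells and 97.9 and 99.1 in LPS-treated WT cells, and at 86.4 and 66.1 in untreated KO cells and 15.8 and 27.8 in untreated WT cells.

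Far fewer regions were called between the genotypes. The limma test called 230 distal regions (1.74%, background 1.77%) higher in rank in KO than in WT cells and 313 (2.37%, background 1.63%) lower, so the share called higher was close to that of all constitutive regions. At gene ends, for regions of any width, 1.87% were called higher and 0.683% lower. The median size of the shift was 5.79 points in the distal regions, 5.18 in all and 4.35 at gene ends, near the median SE of 4.88. These calls depended on single libraries: without either LPS-treated WT library no region was called, and without untreated WT library 1 or 2 the calls were 10 higher and 6 lower or 4 and 2. Without 1 of the KO libraries there were 45 to 117 higher and 86 to 173 lower. All 4 KO libraries lay above all 4 WT ones in 469 regions (3.55%, background 5.39%) and below them in 524 (3.97%, background 3.36%). Within LPS-treated cells 6 were called higher (background 0.023%) and 9 lower (background 0.0362%) in KO. Within untreated cells 34 were called higher (background 0.151%) and 62 lower (background 0.26%). Only 1 region was called higher in both and 0 lower in both. The KO shifts within LPS-treated and within untreated cells, which use no common library, correlated at a Pearson r of 0.441, with the same sign in 64.2% of regions.

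The direction of the genotype calls depended on what was ranked. By fold enrichment 42.4% of the called regions were higher in KO, by the deposited -log10 p 66.4%, by recovered pileup 71.4%, by ranking among the distal regions alone 53.8%, and among regions with no other region within 5 kb 21.7%. By pileup 845 regions (6.39%, background 4.56%) were called higher in KO and 339 (2.57%, background 2.65%) lower, and 189 of the 230 regions called higher by fold enrichment were among the 845, with 103 of the 313 called lower among the 339. The balance of rises and falls with genotype is therefore not given a direction here, and the part of the wider and higher WT peaks in it was not tested.

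The regions named next are the 8 largest rises and falls in KO among called regions whose groups did not overlap, so their separation follows from the choice. Like the other genotype calls, theirs depended on single libraries. The region in Eps8 (chr6:137582236-137582800), which encodes an actin-capping and bundling protein, stood at 81.9 and 80.4 in LPS-treated KO cells and 73.8 and 83.5 in untreated KO cells, against 33.5 and 31.8 in LPS-treated WT cells and 20.8 and 22.4 in untreated WT cells. Its pileup was 139 and 129 in LPS-treated KO cells and 113 and 166 in untreated KO cells, against 55 and 49 in LPS-treated WT cells and 46 and 47 in untreated WT cells. Here KO exceeded WT in pileup too, although the KO pileups were lower in general, and the shift was 52.8 ± 4.88 points (adjusted p = 0.0118). The region in Bcl11a (chr11:24087014-24087463), a zinc finger transcription factor gene, had pileups of 119 and 98 in LPS-treated KO cells and 90 and 101 in untreated KO cells, against 62 and 54 in LPS-treated WT cells and 47 and 50 in untreated WT cells, and shifted by 41.2 ± 5.13 points (adjusted p = 0.0144). The other 6 of the 8 largest rises, of 41.5 to 47.5 points, lay at chr13:6404518-6404896, near Gpam, which encodes an acyltransferase of glycerolipid synthesis, in Fam20a, in Mpzl1, in Mgat5, which encodes an enzyme that branches N-glycans, and in C2cd3, which encodes a centriole protein. Over these 8 regions the KO libraries stood at 46.5 or above and the WT libraries at 46.3 or below.

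The largest fall in KO was 21.9 kb from 1700012A03Rik (chr6:32028173-32028874), at 44.1 and 53.4 in LPS-treated KO cells and 19.7 and 6.77 in untreated KO cells, against 93.4 and 87.9 in LPS-treated WT cells and 94.5 and 92.8 in untreated WT cells. Its pileup was 54 and 55 in LPS-treated KO cells and 40 and 32 in untreated KO cells, against 138 and 110 in LPS-treated WT cells and 137 and 138 in untreated WT cells. The groups were far apart on both scales, with a shift of -61.2 ± 4.90 points (adjusted p = 0.0118). In Rnf157 (chr11:116389201-116389591), which encodes a ubiquitin ligase, the pileup was 52 and 45 in LPS-treated KO cells and 45 and 46 in untreated KO cells, against 120 and 94 in LPS-treated WT cells and 117 and 96 in untreated WT cells, and the shift was -53.7 ± 4.62 points (adjusted p = 0.0118). The other 6, from -49.6 to -40.5 points, lay at chr3:66403697-66404238, in Gtdc1, near Nfe2l3, which encodes a transcription factor of the NFE2 family, in Tmem131l, near Tbc1d21 and near Cnst. The Tmem131l region lies within 20 Mb of Lmna. In that stretch 2 of 208 distal regions (0.962%) were called higher and 8 (3.85%) lower in KO. On the rest of chromosome 3 it was 6 (1.36%) and 11 (2.49%) of 441. Of all distal regions 1.74% were called higher and 2.37% lower, and of all constitutive regions 1.77% and 1.63%. These counts are small, and the difference was not tested.

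**Figure D4:**
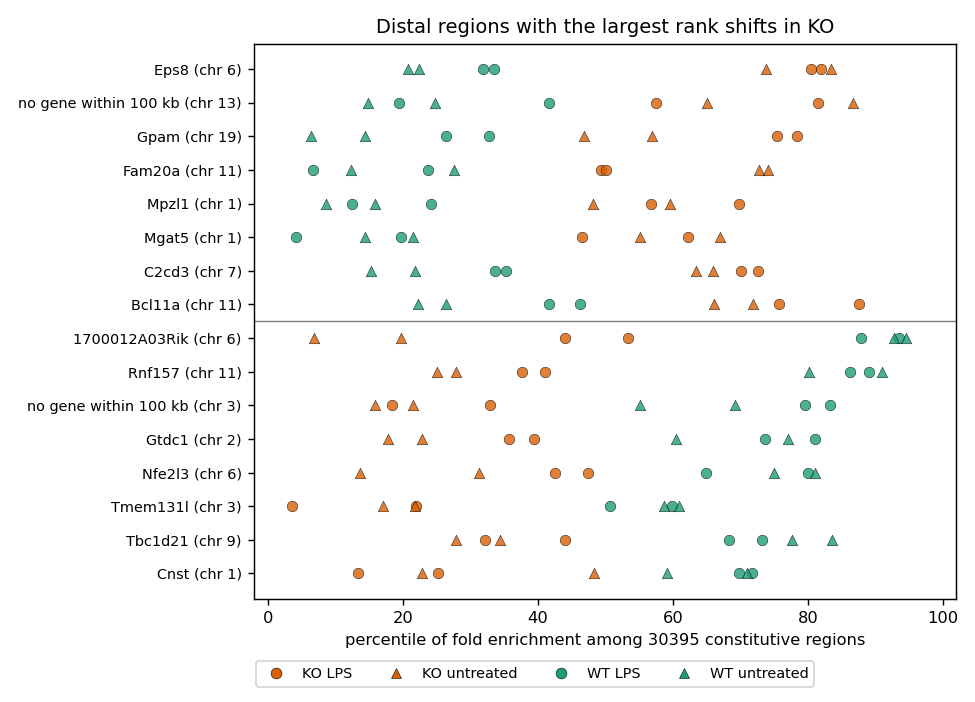
Percentile of fold enrichment (horizontal axis) in each library for the 8 distal regions with the largest rise in KO (above the line) and the 8 with the largest fall (below it), orange for KO and green for WT, circles for LPS and triangles for untreated. The regions were chosen for size and for groups that do not overlap, so the gap follows from the choice. In the upper rows the KO points lie at 46.5 or above and the WT points at 46.3 or below.

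Neighbouring distal regions within 5 kb of each other mostly shifted in opposite directions with LPS by fold enrichment and in the same direction by pileup. Of 2109 pairs of next neighbours whose summits lay within 5 kb, 36.7% shifted the same way with LPS by fold enrichment and the shifts correlated at r = -0.347. Ranked by pileup, 67.5% shifted the same way and r was 0.476. The recovered local backgrounds of such neighbours moved almost together, with r = 0.978 for their log2 ratio between LPS and untreated libraries. For 1698 pairs at 5 to 10 kb r was 0.128 by fold enrichment and 0.312 by pileup, and for 4095 pairs at 10 to 50 kb it was 0.0550 and 0.212. Both regions of a close pair were called by fold enrichment in 336 cases, 263 in opposite directions and 73 in the same one, and in 185 of the 263 the pileup ranks also shifted in opposite directions. These correlations are across pairs of regions that share libraries and background windows.

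**Figure D5:**
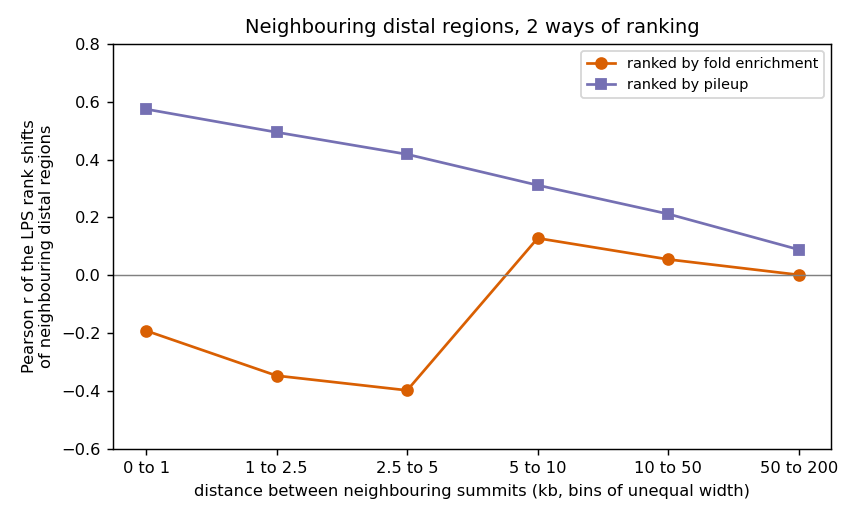
Pearson r between the LPS shifts of neighbouring distal regions (vertical axis) by the distance between their summits (horizontal axis, bins of unequal width), ranked by fold enrichment (circles) and by pileup (squares). Below 5 kb the fold-enrichment ranks give a negative r and the pileup ranks a positive one, and from 5 kb on both are above 0.

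A pair in Syne1, which encodes nesprin-1, a nuclear envelope protein that links the nucleus to the cytoskeleton, had summits about 3 kb apart. At chr10:5191495-5191975 the percentile was 63.9 and 71.6 in LPS-treated KO cells and 70.1 and 71.6 in LPS-treated WT cells, against 40.5 and 31.8 in untreated KO cells and 25.8 and 30.8 in untreated WT cells, a rise of 37.1 ± 5.14 points (adjusted p = 0.000983). Its pileup differed less, at 150 and 136 in LPS-treated KO cells and 191 and 187 in LPS-treated WT cells, against 141 and 135 in untreated KO cells and 163 and 175 in untreated WT cells. The neighbour at chr10:5194367-5195175 fell by 30.8 ± 3.78 points (adjusted p = 0.000595), and its pileup was 73 and 59 in LPS-treated KO cells and 91 and 97 in LPS-treated WT cells, against 142 and 159 in untreated KO cells and 199 and 208 in untreated WT cells. The local background of the pair was 11.6 to 13.0 in LPS-treated KO cells and 14.5 to 15.8 in LPS-treated WT cells, against 16.0 to 16.5 in untreated KO cells and 19.7 to 20.7 in untreated WT cells.

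Ranked by pileup instead, 3752 distal regions (28.4%, background 21.7%) were called higher with LPS and 3628 (27.5%, background 24.6%) lower. Of the 2732 called higher by fold enrichment 2303 were also called higher by pileup (84.3% of the fold-enrichment calls and 61.4% of the pileup calls), and 28 were called lower. Of the 2448 called lower 1955 were also called lower by pileup (79.9% and 53.9%), and 75 were called higher. Among the 5131 distal regions (38.8%) with no other region within 5 kb, 1147 (22.4%) were called higher and 854 (16.6%) lower by fold enrichment. The shares were 20.7% and 18.5% of all distal regions and 14.9% and 15.7% of all constitutive regions. By pileup 26.3% of the 5131 were called higher and 26.7% lower. These differences were not tested.

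Among the gene lists with 20 or more distal regions, the inflammatory and NF-kB lists had the highest shares called higher with LPS by fold enrichment, 31.4% and 33.3%, and the cell cycle list had 25%. In the smaller lists the share was 4 of 10 regions for the interferon response list, 4 of 18 for nuclear envelope and lamina, 1 of 2 for neutrophil, 1 of 6 for stromal and endothelial and 0 of 4 for T and NK cell markers. The lists and the assignment were made with earlier results of these data known, and each count is read against all distal regions, of which 20.7% were called higher and 18.5% lower by fold enrichment and 28.4% higher and 27.5% lower by pileup. Of 35 regions at 16 of 30 inflammatory cytokine and enzyme genes, 11 were called higher and 9 lower by fold enrichment, and 23 higher and 5 lower by pileup, with a median shift of 1.17 points by fold enrichment and 14.9 by pileup. The region near Edn1 (chr13:42244266-42244938), the gene of the vasoactive peptide endothelin-1, had a pileup of 399 and 355 in LPS-treated KO cells and 425 and 334 in LPS-treated WT cells, against 73 and 96 in untreated KO cells and 71 and 75 in untreated WT cells. Its shift was 52.6 ± 4.57 points (adjusted p = 0.000211). Regions near Lif, a cytokine gene, and Ptgs2, the gene of the prostaglandin enzyme COX-2, rose by 49.1 ± 8.44 (adjusted p = 0.00273) and 46.8 ± 5.85 points (adjusted p = 0.000647).

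Of 60 regions at 19 of 30 genes of the NF-kB pathway and its feedback, 20 were called higher and 11 lower by fold enrichment, and 33 higher and 6 lower by pileup. Regions near Tank, an adaptor of TRAF signalling, and in Nfkb1, which encodes the NF-kB subunit p50 and its precursor, rose by 63.0 ± 6.63 (adjusted p = 0.000335) and 50.1 ± 5.45 points (adjusted p = 0.000374). The region 79.1 kb from Tnfaip3 (chr10:19094256-19094753), whose product A20 restrains NF-kB, changed direction with the scale. It fell by 44.9 ± 4.10 points in fold enrichment (adjusted p = 0.000244) and rose by 10.6 ± 2.48 points in pileup (adjusted p = 0.00422). Its pileup was 259 and 180 in LPS-treated KO cells and 288 and 215 in LPS-treated WT cells, against 169 and 203 in untreated KO cells and 205 and 240 in untreated WT cells, while its local background was 21.4 to 27.9 in LPS-treated cells and 9.18 to 11.0 in untreated cells.

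Of the 34 interferon response genes found in the annotation 7 had a distal region, 10 in all, of which 4 were called higher and 1 lower by fold enrichment and 6 and 1 by pileup. The region near Gbp5, a guanylate-binding protein gene, rose by 22.7 ± 3.16 points (adjusted p = 0.000998), and the one 16.7 kb from Irf1, an interferon regulatory factor gene, fell by 43.2 ± 4.56 points (adjusted p = 0.000338). Averaged over the other factor, the region near Parp14 was not called with LPS (21.8 ± 7.69 points, adjusted p = 0.0592). It was called higher in KO (34.8 ± 7.69 points, adjusted p = 0.0464). The untreated WT libraries stood at 13.5 and 11.5, and all other libraries at 54.9 or above. Within WT cells the region was called higher with LPS (45.5 points, adjusted p = 0.0257), and within KO cells it shifted by -1.95 points (adjusted p = 0.927). The interaction was not called (adjusted p = 0.502).

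Macrophage identity genes held 106 regions at 26 of 40 genes. By fold enrichment 15 were called higher with LPS and 21 lower, and by pileup 35 higher and 24 lower, so the balance turned with the scale. The region near Maf (chr8:115650110-115650732), a macrophage transcription factor gene, had a pileup of 39 and 35 in LPS-treated KO cells and 69 and 60 in LPS-treated WT cells, against 125 and 167 in untreated KO cells and 215 and 230 in untreated WT cells. It fell by 58.7 ± 4.71 points (adjusted p = 0.000174), and the region near Cx3cr1, the fractalkine receptor gene, by 52.1 ± 5.74 points (adjusted p = 0.000387). The region 11.3 kb from Cebpa, which encodes C/EBP alpha, rose by 41.0 ± 5.67 points (adjusted p = 0.000968).

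AP-1 and immediate early genes held 84 regions at 16 of 26 genes, with 15 called higher and 21 lower by fold enrichment and 28 and 26 by pileup. The 3 largest shifts of this list were all rises near Klf6, which encodes a Kruppel-like transcription factor, at chr13:5828500-5829206, chr13:5823236-5823690 and chr13:5931510-5932026, of 70.2 ± 5.13 (adjusted p = 0.000164), 60.1 ± 4.86 (adjusted p = 0.000177) and 59.0 ± 6.68 points (adjusted p = 0.000431). Nuclear envelope and lamina genes held 18 regions at 10 of 20 genes, with 4 called higher and 9 lower with LPS by fold enrichment and 4 and 11 by pileup, and none called with genotype by fold enrichment. The largest shift there was a rise of 60.0 ± 6.94 points (adjusted p = 0.000467) in Nup210, which encodes a nuclear pore membrane protein. Cell cycle genes held 28 regions at 9 of 25 genes, with 7 higher and 3 lower by fold enrichment and 8 and 5 by pileup. The regions in Cdk6 and near Cdk1, genes of cell cycle kinases, rose by 49.8 ± 5.84 (adjusted p = 0.000495) and 29.3 ± 6.71 points (adjusted p = 0.0105). The region near the cyclin gene Ccnd2 rose by 28.9 ± 6.05 points (adjusted p = 0.00699) averaged over the genotypes. Its shift was 53.0 ± 8.56 points in KO cells (adjusted p = 0.00459) and 4.69 ± 8.56 in WT cells (adjusted p = 0.771). The LPS and untreated libraries overlapped there, and the interaction was not called (adjusted p = 0.473).

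Marker genes of other cell types had few distal regions. The B cell list and the erythroid and megakaryocyte list had none. The T and NK cell list had 4, none called with LPS by fold enrichment and 2 lower by pileup, among them a pair near Klrb1c (shifts of -10.7 and -10.3 points, adjusted p = 0.0684 and 0.300) and 1 near Cd28 (6.51 points, adjusted p = 0.427). The neutrophil list had 2: the region near Csf3r, the receptor gene of granulocyte colony-stimulating factor, which macrophages also express, rose by 60.6 ± 5.55 points (adjusted p = 0.000245), and the one near S100a9 shifted by 9.67 points (adjusted p = 0.220). The stromal and endothelial list had 6, with 1 called higher, near Acta2 (25.6 points, adjusted p = 0.0158), and 1 lower, near Kdr, by fold enrichment. The Kdr region fell by 20.6 ± 5.65 points in fold enrichment (adjusted p = 0.0231) and rose by 13.4 ± 4.75 points in pileup (adjusted p = 0.0367).

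Some genes gathered many distal regions, and the genes named here were picked for their counts. Lpp, which encodes a focal adhesion protein, had 40, of which 8 were called higher and 11 lower with LPS by fold enrichment, and 17 and 8 by pileup. Akap13 followed with 20. Pdzd2 and Ppm1l had 5 each, all called higher with LPS by fold enrichment, at median shifts of 42.1 and 17.8 points. Of 15 regions at Pde4b, which encodes a cyclic AMP phosphodiesterase induced in activated macrophages, 6 were called higher and 2 lower by fold enrichment and 11 and 0 by pileup. Rreb1 had 7 lower and 1 higher of 11, and Fli1, an ETS transcription factor gene, had 5 lower and 0 higher of 8 by fold enrichment and 7 lower by pileup. Cd93, which encodes a surface glycoprotein of myeloid cells, had 5 lower and 1 higher of 10 by fold enrichment, and 8 lower and 0 higher by pileup. At B4galt5 the scales parted: 5 of 8 regions were called lower by fold enrichment and 5 of 8 higher by pileup.

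Shares of calls varied with place. Regions over 100 kb from a gene end (1968) were called higher with LPS in 24.2% and lower in 18.1%, against 18.9% and 17.6% of the 3892 at 10 to 20 kb. Inside genes 20.3% were called higher and 19.6% lower by fold enrichment, and between genes 21.1% and 17.3%. By pileup the shares were 27.4% and 29.7% inside genes, so the balance turned with the scale, and 29.5% and 24.9% between genes. Windows of 1 Mb with 2 or fewer genes, the kind of stretch often found at the nuclear lamina, held 1415 regions. By fold enrichment 23.8% of them were called higher and 17.7% lower with LPS, and 1.91% higher and 2.90% lower in KO. By pileup 31.6% were called higher and 27.1% lower with LPS. None of these differences was tested, and regions near each other share their neighbourhood.

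At the limits of the rule the regions kept and left out had these values, given with no test. The nearest kept, at 10.001 and 10.005 kb from a gene end, were the regions in Zdhhc18 and near Arhgap22, with mean percentiles of 92.4 and 29.8, and the nearest left out, at 9.999 and 9.998 kb, were those in Mcf2l and near Fosb, at 62.8 and 44.8. The widest regions kept, of 999 and 998 bp near Faap20 and Cd34, had mean percentiles of 26.7 and 49.4, and the narrowest left out, of 1000 bp in Ksr1 and at chr15:5446289-5447288, had 61.2 and 72.9.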

How the data were processed

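The deposited peak lists, 1 per library with replicates not pooled, were made by the authors with BWA 0.7.12, MACS2 and the mm10 build, per the submitters' processing notes; the filter behind them is not given in the sources used here. For every peak the authors deposited a fold enrichment (a ratio), -log10 p and q values, a score and a summit offset. Read totals were not used here. Merging, distances to 21900 RefSeq protein-coding genes (GRCm38.p6) and ranks were computed in Python 3.11.15 with pandas 2.3.3. limma 3.58.1 (R 4.3.3) was fitted to the percentiles of all 30395 constitutive regions as means of 4 groups with 4 residual degrees of freedom. The variance of each region was moderated towards a trend over all regions (eBayes). SEs and p-values thus rest on a spread borrowed in part from other regions, with more degrees of freedom than the residual 4. LPS and KO contrasts averaged the other factor. The fits were tested on simulated data. From the deposited fold enrichment and -log10 p, taken as a Poisson tail of a whole pileup over a local background, the pileup at the summit was recovered for 100% of peaks in constitutive regions within 0.001 of the -log10 p. Pileup ranks and the subset with no region within 5 kb were added after the data were seen, as were the promoter windows shown and the genes picked for many regions. The members and lists were chosen with earlier results of these data known. Regions named are the 8 largest rises and falls among called regions whose groups do not overlap, the highest 6 and lowest 3, those beside each limit, 2 interaction extremes each way, and up to 3 largest shifts per list. No genome was used, so motifs were searched in the promoter windows alone. Chromosomes X and Y were left out.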

Additional observations from a re-analysis of the deposited data

How the results depend on the processing

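Counts below give regions called higher, then lower, for settings where either count moved by more than a set factor from the main run. Shares over all constitutive regions are not given here, so the counts show movement alone. KO calls moved most, from 230 and 313 in the main run. They were 113 and 153 with a replicate block and 380 and 618 with normal scores. With -log10 p ranked they were 594 and 301, and with pileup ranked 845 and 339. Among peaks with a -log10 p of at least 20 they were 134 and 211, on 10119 distal regions against 13215. LPS calls within KO were 2872 and 2612 by pileup and 2536 and 2150 by -log10 p. Within WT they were 2768 and 2605 by pileup and 2400 and 2122 by -log10 p. At a -log10 p of at least 20 they were 941 and 769 within WT, on the same 10119 regions. Regions higher and lower in KO without overlap were 517 and 328 by -log10 p, and 586 and 285 by pileup. Among the 5131 isolated members calls were 1147 and 854 for LPS, 65 and 235 for KO, 732 and 511 for LPS within KO, and 618 and 364 within WT. Regions without overlap were 844 and 604 for LPS and 86 and 336 for KO, on fewer regions by construction. The KO calls were 1.27% and 4.58% of the isolated members, against 2.04% and 0.965% of the 8084 others, and this difference was not tested.

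Leaving out 1 library gave 2133 to 2412 higher and 1840 to 2175 lower with LPS, 0 to 117 and 0 to 173 in KO, 1027 to 1618 and 719 to 1300 for LPS within KO, 479 to 1408 and 270 to 1189 within WT, 0 for the interaction, and without overlap 2419 to 2467 and 2225 to 2355 for LPS and 598 to 714 and 704 to 778 for KO; a lone library was assumed to vary like the other groups. The counts without overlap then compare fewer libraries than 4 against 4, an easier condition. They therefore exceed the 2148 and 2003 for LPS and the 469 and 524 for KO by construction. The replicate numbers share only a number: deviations of same-numbered libraries correlated at -0.0783 to 0.0336. Over all settings 675 values of 46 named LPS shifts kept direction and side of the threshold, 30 lost the call and 3 reversed: Kdr at 1.50 points by -log10 p and 13.4 by pileup, and Tnfaip3 at 10.6 by pileup. Of 19 named KO shifts 211 values kept both and 83 lost the call. The cause of these changes was not tested.

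With 2 libraries a group and 4 residual degrees of freedom, the median SE of a shift, moderated across regions, was 4.88 points. A shift of the size of its own SE cannot pass the test. The recovered pileup limits precision to counting error at the height of each peak. Library totals were not used, and the recovered flat genome-wide background was 5.53 in every library. Whether the lists differ in depth was not tested.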

Other observations

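Of the distal regions, 8 overlapped a RefSeq microRNA hairpin. The region at Mir8090 stood at 49.8 and 64.5 in LPS-treated KO cells and 70.2 and 72.5 in LPS-treated WT cells, against 9.42 and 16.3 in untreated KO cells and 19.5 and 37.2 in untreated WT cells, a shift of 43.7 ± 6.14 points (adjusted p = 0.00105). The region at Mir6353 stood at 21.7 and 18.1 in LPS-treated KO cells and 14.2 and 18.1 in LPS-treated WT cells, against 53.3 and 67.7 in untreated KO cells and 52.7 and 54.4 in untreated WT cells, a shift of -39.0 ± 5.13 points (adjusted p = 0.000795). Regions at Mir6541 and Mir6367 also fell with LPS, by 30.5 and 15.6 points, and the one at Mir8096 rose by 7.34 points.

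The region at Mir6398 stood at 22.2 and 28.9 in LPS-treated KO cells and 32.3 and 35.6 in untreated KO cells, against 2.59 and 4.24 in LPS-treated WT cells and 2.72 and 8.82 in untreated WT cells. Its KO shift was 25.2 points (adjusted p = 0.0144). The regions at Mir3092 and Mir713 were called in neither comparison. No expression of these microRNAs was measured.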
